A study of Mus musculus with 6 samples.

Results

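The insulin-like growth factor (IGF) genes described here were the ligands Igf1 and Igf2, the receptors Igf1r and Igf2r, and the binding proteins Igfbp2 to Igfbp7. Loci were taken by gene name, which gave 10 genes at 11 loci out of 34231 genes at 36812 named loci. Igfbp5 carries its name on 2 overlapping loci of opposite strand. All 11 loci passed the filter on low counts and were among the 15673 loci tested. The RNA came from primary fibroblasts cultured from mouse embryos of a C57BL/6 background. The STC1-/- KO cells carry a disrupted Stc1, the gene of stanniocalcin-1 (3 libraries), and the STC1+/+ WT cells carry the intact gene (3 libraries). The cells of both genotypes were kept in medium with fetal calf serum, and embryonic stage and passage are not stated in the labels. As the labels do not tie libraries to single embryos, every p-value below measures only the spread between these libraries, which may be technical.

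IGF1 and IGF2 are secreted growth factors that signal through the IGF1 receptor, a receptor tyrosine kinase. The IGF2 receptor, which is also the mannose-6-phosphate receptor, has no kinase and carries IGF2 to the lysosome. Secreted binding proteins hold most extracellular IGF, and the proteases PAPP-A and PAPP-A2 release it by cutting some of them; stanniocalcins are known as inhibitors of these proteases, which places the knocked-out gene in the same pathway.

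The deposited tables give a fragment count and a length-scaled level (FPKM, in which fragments are divided by the length of the transcripts and the depth of the library) for each locus. Levels between libraries are given here as CPM (fragment counts scaled by TMM effective library sizes), and levels between genes as FPKM. Stc1 itself had 6, 0 and 0 fragments in KO replicates 1 to 3, against 2245, 291 and 368 in WT replicates 1 to 3. With 3 counts taken as the limit that 0 allows, Stc1 was below 0.0805 CPM in KO replicate 2 and 0.0666 CPM in KO replicate 3, limits that cover counting error only. Libraries held 21882092 to 44552311 fragments in KO and 42509592 to 71488701 in WT. Fibroblast markers were present in every library, with none of 13 at 0, and their summed CPM ran from 6411 to 10388 in KO and from 12639 to 32044 in WT. Macrophage markers (16 genes in the files, none at 0 in any library) also ran through all 6 libraries, with summed CPM of 1485, 498 and 546 in KO and 404, 1645 and 12194 in WT.

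Promoter sequence is shown for the members whose values frame the results, Igfbp6, the only member with every KO library below every WT library, and Igf2, the gene with the widest range between libraries when the plus-strand locus of Igfbp5 is set aside. Both are the 250 bases before a start site from RefSeq on GRCm38.p6, the same genome version as mm10, written 5′ to 3′ on the gene's own strand. Capitals mark matches on either strand to a TATA box (TATAAA), a GC box (GGGCGG) or a CCAAT box. Igf2 has 4 start sites in that table, and the one shown lies furthest downstream.

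Igfbp6, chr15:102143936-102144185, plus strand: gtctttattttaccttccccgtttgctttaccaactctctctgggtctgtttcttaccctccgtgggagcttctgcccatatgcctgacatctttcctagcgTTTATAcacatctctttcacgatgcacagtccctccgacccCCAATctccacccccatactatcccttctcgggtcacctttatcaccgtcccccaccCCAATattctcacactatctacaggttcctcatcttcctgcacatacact

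Igf2, chr7:142657497-142657746, minus strand: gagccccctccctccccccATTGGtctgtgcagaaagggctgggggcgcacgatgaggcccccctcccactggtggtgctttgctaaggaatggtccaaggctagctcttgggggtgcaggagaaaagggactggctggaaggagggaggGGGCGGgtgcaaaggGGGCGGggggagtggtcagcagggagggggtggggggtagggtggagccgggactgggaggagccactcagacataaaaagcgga

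The Igfbp6 window holds 1 TATAAA match, 2 CCAAT matches and 0 GGGCGG matches, at 49.6% GC. The Igf2 window holds 0 TATAAA matches, 1 CCAAT match and 2 GGGCGG matches, at 66.0% GC. Of 32851 promoters of that length, 12.4% hold TATAAA, 33.8% hold CCAAT and 32.7% hold GGGCGG, and the median GC content is 52.4%. A match is a description of these letters, not a site of binding.

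The comparison of KO with WT cells asked which members of the IGF system differ with stanniocalcin-1. edgeR's quasi-likelihood test with Benjamini-Hochberg adjustment called 0 of the 11 member loci at an adjusted p under 0.05, and percent called over all 15673 loci was 0%. Stc1, the disrupted gene, was not called either, at a log2 fold change of -7.72 (edgeR unadjusted p 0.00313, adjusted p 0.763). Its q-value in the authors' deposited table was 3.67e-06. The absence of edgeR calls therefore does not show that the members are unchanged. At an unadjusted p under 0.05 there were 607 of all loci, and among the members there was 1 lower in KO, Igfbp6, where 2.27% of all loci were lower, and 0 higher, where 1.6% of all loci were higher. DESeq2 called 1 member, Igfbp6, and 0.322% of 18923 loci in either direction. The median log2 fold change of KO over WT was 0.02 over the member loci, with 6 of 11 positive, and -0.05 over all loci tested. CPM of KO and WT libraries did not overlap for 2 members, Igf2r (higher in KO, as for 5.18% of all loci) and Igfbp6 (lower in KO, as for 5.44% of all loci).

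**Figure D1:**
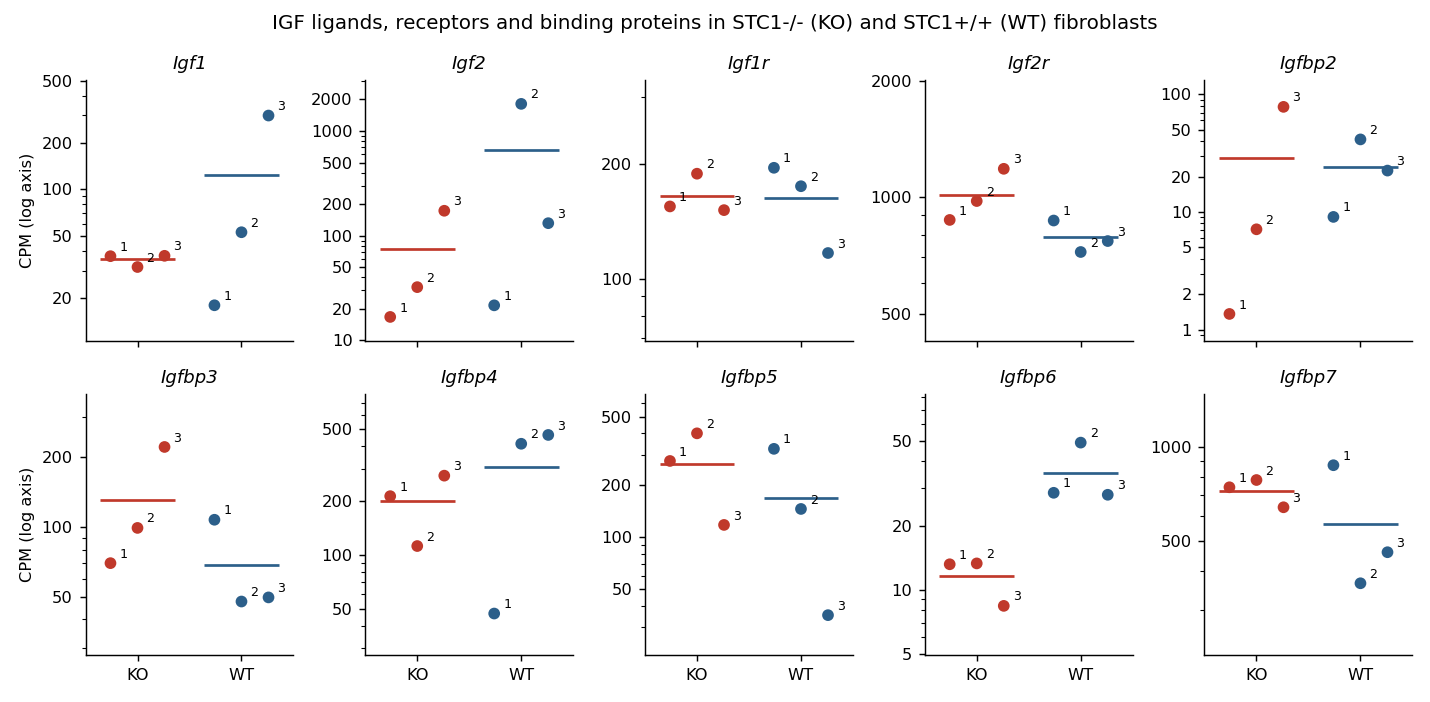
CPM on log axes of the 10 genes in each library, KO in red on the left and WT in blue on the right of each panel; numbers name the replicates and horizontal lines are means over 3 libraries. Igfbp6 lies between 8.39 and 13.3 CPM in KO and between 27.9 and 49.0 CPM in WT, while Igf2 spans 16.8 to 173 CPM in KO and 21.6 to 1815 CPM in WT.

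Among the ligands, Igf1 encodes the growth factor that many tissues make locally. The locus (13 transcripts, chromosome 10 of mm10, 87858265 to 87937042, plus strand) had 37.2, 31.6 and 37.4 CPM in KO and 18.0, 53.0 and 299 CPM in WT. The KO libraries lay close together and inside the WT range, which was set by WT replicate 3. Means were 35.4 ± 3.24 CPM in KO and 123 ± 153 CPM in WT (SD, n = 3 each). edgeR gave a log2 fold change of -1.80 (SE 0.98) with an adjusted p of 0.763. Without WT replicate 3 the log2 fold change was -0.0037.

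Macrophage markers were highest and lowest in the same libraries as Igf1. The mean log2 CPM of the 15 tested markers was 4.95, 2.19 and 2.58 in KO and 0.97, 6.05 and 8.97 in WT, so that WT replicate 3 was highest and WT replicate 1 lowest for both. KO replicate 1 exceeded the other KO libraries in these markers, whereas in Igf1 it exceeded KO replicate 2 and was level with KO replicate 3. All 15 markers had a negative log2 fold change with a median of -2.86, and the median was -0.14 without WT replicate 3. With the marker mean as a covariate in edgeR, the log2 fold change of Igf1 was 0.05. In such bulk samples fewer cells of a type and less RNA per cell cannot be told apart.

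Igf2 encodes the fetal growth factor that is imprinted and expressed from the paternal allele. Its locus (10 transcripts, chromosome 7, 142650766 to 142666816, minus strand) had 16.8, 32.3 and 173 CPM in KO and 21.6, 1815 and 132 CPM in WT. WT replicate 2 stood far above the other libraries, and KO replicate 3 was above both other WT libraries. Means were 74.1 ± 86.1 CPM in KO and 656 ± 1005 CPM in WT (SD, n = 3 each). The log2 fold change was -3.15 (SE 1.74), with an edgeR adjusted p of 0.763. It was -0.02 without WT replicate 2 and -4.74 without KO replicate 3. The authors' tool marked this locus as failed in WT replicate 2, the library with the highest value.

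H19, the maternally expressed noncoding RNA that shares a control region with Igf2, lies 72.6 kb from it. The locus, which the files also name Mir675, had 5.31, 21.4 and 148 CPM in KO and 35.9, 2307 and 816 CPM in WT. The authors' tool marked it as failed in WT replicate 3. As for Igf2, the highest library was WT replicate 2 and the lowest KO replicate 1, and within KO replicate 3 was highest for both. The antisense transcript Igf2as stayed low, at 0.141, 0.134 and 0.887 CPM in KO and 0.0566, 4.59 and 0.0414 CPM in WT. It overlaps Igf2 on the opposite strand, and the sources used here do not say whether counting used strand, so reads of the pair may not have been told apart.

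Genes of the imprinted and fibroblast lists were not all high in WT replicate 2, although some were. Mest, an imprinted gene of embryonic mesoderm, had 1.83, 1.90 and 2.97 CPM in KO and 2.17, 37.8 and 3.93 CPM in WT. Col1a1, a chain of type I collagen, had 829, 2080 and 2318 CPM in KO and 3111, 11994 and 3408 CPM in WT. Dcn, a small proteoglycan on both lists, had 1459, 1395 and 430.2 CPM in KO and 475, 216 and 797 CPM in WT, lowest in WT replicate 2. The part of the makeup of WT replicate 2 in the Igf2 difference was not tested.

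**Figure D2:**
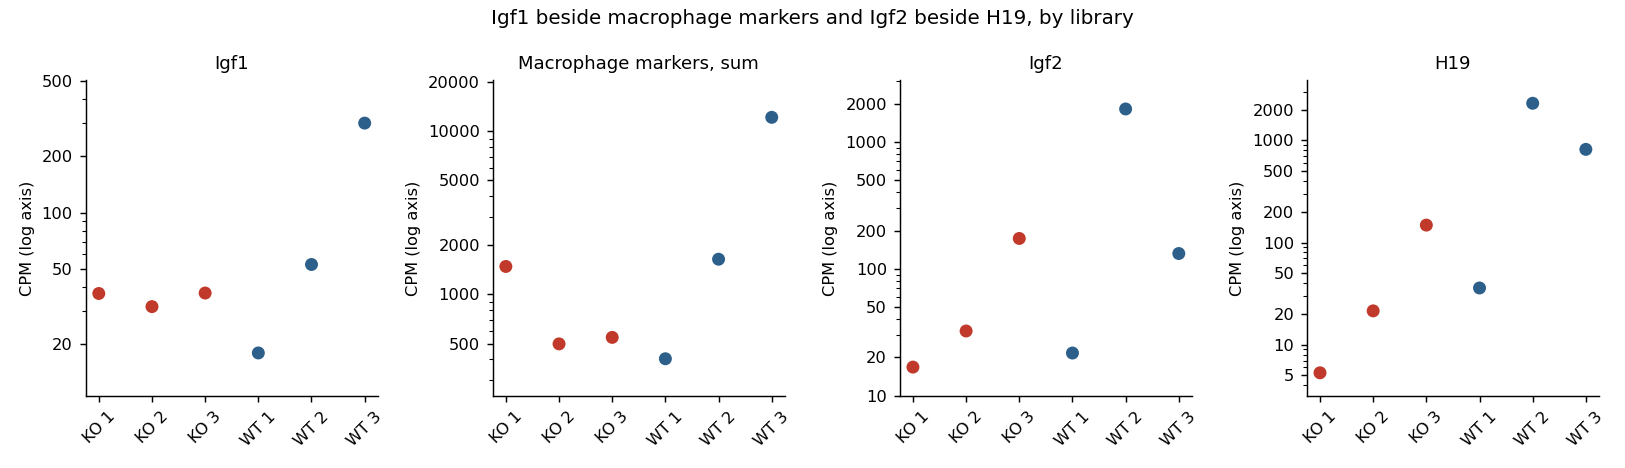
CPM on log axes by library (KO red, WT blue) of Igf1, of the macrophage markers summed, of Igf2 and of H19. WT replicate 3 is highest for Igf1 (299 CPM) and for the summed markers (12194 CPM), and WT replicate 2 is highest for Igf2 (1815 CPM) and H19 (2307 CPM).

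The ratio of the ligands varied from library to library. Per length, Igf2 over Igf1 was 0.201, 0.537 and 2.54 in KO and 0.811, 25.5 and 0.308 in WT. Igf2 exceeded Igf1 in KO replicate 3 and in WT replicate 2, and Igf1 exceeded Igf2 in the other libraries.

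KO and WT libraries also lay apart in the transcript length that the authors' tool assigned to Igf1. FPKM divided by CPM, with a library constant removed, is nearly the same in every library for a locus with 1 transcript, and it is higher where shorter transcripts are assigned. A small offset between the genotypes was left, since Igfbp6, with 1 transcript, had 0.824 in each KO and 0.823 in each WT library. For Igf1 the ratio was 0.555, 0.476 and 0.485 in KO and 0.375, 0.340 and 0.394 in WT, with every KO library above every WT library. This ratio had groups without overlap, in either direction, for 12.3% of 9344 loci with several transcripts and at least 100 fragments in each library, and 6.83% were higher in KO; both shares count gaps of any size, such an offset included. Igfbp7, with 2 transcripts, had a rounded 0.816 in all 6 libraries. Before rounding its groups did not overlap either, at 0.81628 to 0.81638 in KO and 0.81572 to 0.81593 in WT. Igfbp4, with 8 transcripts, had 0.534, 0.467 and 0.521 in KO and 0.511, 0.512 and 0.491 in WT. The groups overlapped for Igfbp4, as they did for Igf2, Igf1r, Igf2r, Igfbp3 and Igfbp5. Which Igf1 transcripts differ was not examined, and the part of macrophage content in it was not tested.

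The receptors were the steadiest members. Igf1r, the signalling receptor for both ligands (3 transcripts, chromosome 7, 67951875 to 68233662, plus strand), had 155, 189 and 151 CPM in KO and 195, 175 and 117 CPM in WT. The groups overlapped, with means of 165 ± 20.5 CPM in KO and 162 ± 40.7 CPM in WT (SD, n = 3 each). By edgeR the log2 fold change was 0.02 (SE 0.23) with an adjusted p of 0.98.

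Igf2r, the receptor that clears IGF2 (5 transcripts, chromosome 17, 12682163 to 12769754, minus strand), had 874, 978 and 1185 CPM in KO and 871, 722 and 771 CPM in WT. Every KO library lay above every WT library, although KO replicate 1 and WT replicate 1 were nearly equal. Means were 1013 ± 158 CPM in KO and 788 ± 75.9 CPM in WT (SD, n = 3 each). On the log2 scale KO was higher by 0.36 (SE 0.19), with an edgeR adjusted p of 0.763. It stayed between 0.23 and 0.46 when each library was left out in turn.

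Airn, the noncoding RNA that overlaps Igf2r on the opposite strand and silences its paternal allele, had 7.19, 9.82 and 18.0 CPM in KO and 8.95, 8.43 and 11.1 CPM in WT. KO replicate 3 was the highest library for both Airn and Igf2r. Per length, Igf2r exceeded Igf1r in every library, with a ratio of 5.01, 4.49 and 7.09 in KO and 3.96, 3.59 and 6.23 in WT, and the groups overlapped.

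Among the binding proteins, Igfbp6 was the member that separated the genotypes. It encodes a binding protein that prefers IGF2, and its locus has 1 transcript (chromosome 15, 102144362 to 102149511, plus strand). Igfbp6 had 280, 495 and 378 fragments in KO and 2013, 2094 and 1348 in WT. Scaled, these were 13.2, 13.3 and 8.39 CPM in KO and 28.5, 49.0 and 27.9 CPM in WT. The highest KO library was below the lowest WT library, and WT replicate 2 stood above the other WT libraries. Means were 11.6 ± 2.79 CPM in KO and 35.1 ± 12.0 CPM in WT (SD, n = 3 each). The fitted log2 fold change was -1.60 (SE 0.32), with an unadjusted p of 0.00248 in edgeR's quasi-likelihood test.

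The call on Igfbp6 depended on the test. edgeR's adjusted p was 0.763, DESeq2's was 0.00944, and the range over all alternatives was 0.00944 to 0.99994. Its log2 fold change ran from -1.74 to -1.27 when each library was left out, was -1.54 with the macrophage marker mean as a covariate, and was -1.40 without WT replicates 2 and 3 and KO replicate 1, the libraries highest in macrophage markers. In the authors' deposited table Igfbp6 had an FPKM of 9.6 in KO and 28.7 in WT, a log2 fold change of -1.58, a p-value of 0.0223 and a q-value of 1, where 0.193% of 8799 genes had a q-value under 0.05.

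Igfbp2 and Igfbp5 are neighbours on chromosome 1, transcribed toward each other with a gap of 5.5 kb. Igfbp2, a binding protein of fetal tissues and serum (72824503 to 72852474, plus strand), had 1.36, 7.13 and 78.2 CPM in KO and 9.09, 41.4 and 22.5 CPM in WT. KO replicate 1, with 29 fragments, was the lowest and KO replicate 3 the highest of all libraries, so that the KO range enclosed the WT range. The log2 fold change was 0.25 (SE 1.36), with an edgeR adjusted p of 0.959, and it was -2.51 without KO replicate 3.

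Igfbp5, a binding protein that also attaches to matrix (72857932 to 72875085, minus strand), had 277, 400.2 and 118 CPM in KO and 325, 146 and 35.4 CPM in WT. The groups overlapped widely, with KO replicate 2 highest and WT replicate 3 lowest. Means were 265 ± 142 CPM in KO and 169 ± 146 CPM in WT (SD, n = 3 each). The log2 fold change was 0.65 (SE 0.82), with an edgeR adjusted p of 0.815; it was 1.54 without WT replicate 1 and 0.17 without WT replicate 3.

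In KO replicate 3 Igfbp2 was at its highest and Igfbp5 at its lowest of the KO libraries, and in WT replicate 1 Igfbp2 was at its lowest and Igfbp5 at its highest of the WT libraries. The other libraries did not show this inverse order. Within KO, Igfbp2 was lowest in replicate 1 and Igfbp5 highest in replicate 2. Within WT, Igfbp5 was lowest in replicate 3 and Igfbp2 highest in replicate 2. A further locus named Igfbp5 lies on the plus strand (72857796 to 72862509, 1 transcript) and had 5.78, 0 and 2.0 CPM in KO and 2.92, 12.1 and 1.57 CPM in WT. It overlaps the gene on the opposite strand, so its reads may not have been told apart from those of Igfbp5. Its log2 fold change was -1.10 (SE 1.58), with an edgeR adjusted p of 0.836.

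Igfbp3, the main IGF carrier of serum (2 transcripts, chromosome 11, 7206086 to 7213923, minus strand), had 69.9, 99.2 and 222 CPM in KO and 108, 47.7 and 49.7 CPM in WT. WT replicate 1 lay inside the KO range, and the other WT libraries lay below every KO library. Means were 130 ± 80.6 CPM in KO and 68.3 ± 34.0 CPM in WT (SD, n = 3 each). KO over WT, the log2 fold change was 0.93 (SE 0.54), with an edgeR adjusted p of 0.763. It was 0.31 without KO replicate 3 and 1.43 without WT replicate 1. Igfbp1, which lies 3.5 kb from Igfbp3 and is known from liver, had 0 fragments in all 6 libraries.

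Igfbp4 encodes the binding protein best known as a substrate of PAPP-A. The locus (8 transcripts, chromosome 11, 99040221 to 99054392, plus strand) had 212, 112 and 275 CPM in KO and 46.9, 414 and 464 CPM in WT. The WT libraries enclosed the KO range, with WT replicate 1 lowest of all. Means were 199 ± 82.5 CPM in KO and 308 ± 228 CPM in WT (SD, n = 3 each). KO over WT, the log2 fold change was -0.63 (SE 0.81), with an edgeR adjusted p of 0.819. WT replicates 2 and 3 and KO replicate 1 were also the libraries highest in macrophage markers, although Igfbp4 was higher in KO replicate 3 than in KO replicate 1. With the marker mean as a covariate the log2 fold change was 0.72.

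Igfbp7, a secreted protein with low affinity for IGFs (2 transcripts, chromosome 5, 77349240 to 77408045, minus strand), had 742, 783 and 640 CPM in KO and 874, 364 and 459 CPM in WT. The KO libraries lay between WT replicate 1 and the other WT libraries. Means were 722 ± 73.7 CPM in KO and 566 ± 271 CPM in WT (SD, n = 3 each). The log2 fold change was 0.35 (SE 0.35), with an edgeR adjusted p of 0.777, and it was 0.82 without WT replicate 1 and 0.13 without WT replicate 2.

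**Figure D3:**
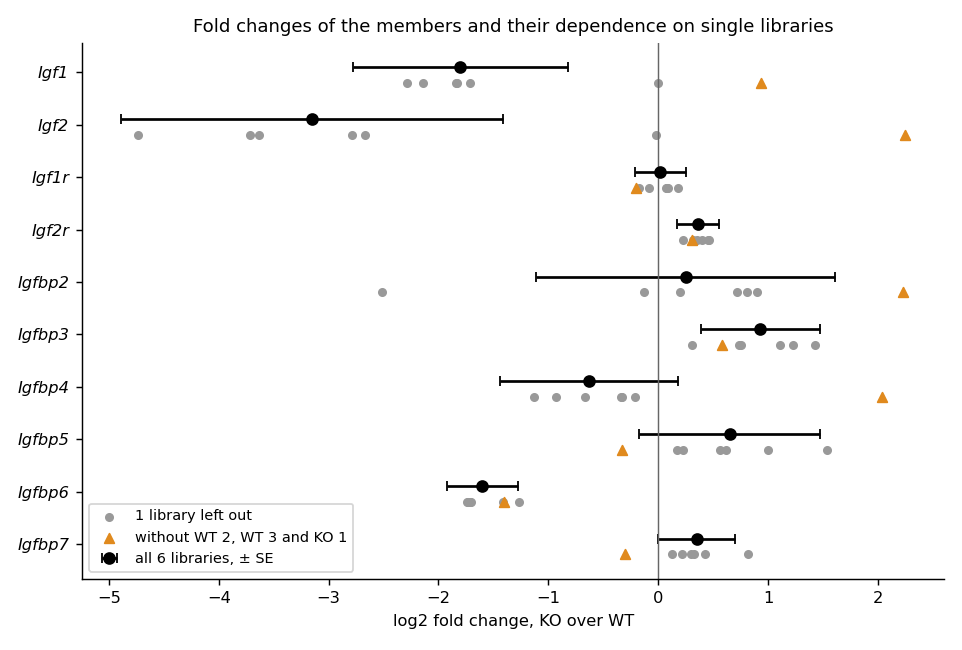
Log2 fold change of KO over WT for the 10 genes: black points with bars are the edgeR estimate from all 6 libraries ± SE, grey points leave out 1 library each, and orange triangles leave out WT replicates 2 and 3 and KO replicate 1. Igfbp6 stays between -1.74 and -1.27 with a library left out and Igf2r between 0.23 and 0.46, while Igf2 runs from -4.74 to -0.02.

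In the authors' deposited table, none of the other members found there had a q-value below 1. That table gave Igf1 17.8 FPKM in KO and 47.8 in WT with a log2 fold change of -1.42 (the authors' deposited table, p-value 0.52). For Igf2 the authors' deposited table gave 19.7 FPKM in KO and 167 in WT, a log2 fold change of -3.08 and a p-value of 0.71. Igfbp3 stood in the authors' deposited table at 46.0 FPKM in KO and 23.5 in WT, with a log2 fold change of 0.97 and a p-value of 0.19. For Igfbp2, Igfbp5 and Igfbp7 the log2 fold changes of the authors' deposited table were 0.30, 0.68 and 0.38. Igf1r, Igf2r and Igfbp4 were not found by name in that table.

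Per length, Igfbp7 had the highest mean of the members in both genotypes, at 594 ± 56.4 FPKM in KO and 454 ± 204 FPKM in WT (SD, n = 3 each). It was the highest member in every library except WT replicate 2, where Igf2 had 461 FPKM and Igfbp7 298 FPKM. In KO it was followed by Igfbp4 (104 ± 47.5 FPKM) and Igf2r (92.4 ± 15.4 FPKM), which did not differ beyond their spread, and the lowest was Igfbp6 at 9.63 ± 2.23 FPKM, below Igf1r at 17.0 ± 2.50 FPKM by more than their spread. Between them, Igfbp3, Igfbp5, Igfbp2, Igf2, Igf1 and Igf1r ran in that order from 46.1 to 17.0 FPKM, and each differed from its neighbour by less than the larger of their SDs. In WT the order below Igfbp7 was Igf2, Igfbp4, Igf2r, Igf1, Igfbp6, Igfbp3, Igfbp5, Igfbp2 and Igf1r, from 167 ± 254 to 16.2 ± 4.30 FPKM. Among these, each differed from its neighbour by less than the larger SD of the pair. Igfbp6 was ranked 10 in KO and 6 in WT, and Igf2 7 in KO and 2 in WT.

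The summed level of the binding protein transcripts varied less than its parts. Igfbp2 to Igfbp7 together came to 790, 804 and 842 FPKM in KO and 816, 619 and 669 FPKM in WT, and the groups overlapped. Igfbp7 made up 76.5%, 80.3% and 63.3% of the sum in KO and 84.0%, 48.2% and 56.4% in WT. The other binding proteins summed to 186, 158 and 309 FPKM in KO and 130, 321 and 291 FPKM in WT.

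Within Igfbp2 to Igfbp6, Igfbp4 was the leading transcript in 4 libraries and Igfbp5 in KO replicate 2 and WT replicate 1. Igfbp4 held 60.5%, 33.2% and 47.4% of that sum in KO and 17.7%, 66.4% and 78.7% in WT. Igfbp5 held 20.0%, 34.3% and 5.24% in KO and 32.3%, 6.14% and 1.65% in WT. Igfbp6 held 5.81%, 6.97% and 2.28% in KO and 17.3%, 12.6% and 7.94% in WT, with every KO library below every WT library. Igfbp3 over Igfbp6 was 2.26, 3.16 and 11.2 in KO and 1.60, 0.413 and 0.756 in WT, without overlap. This is not a separate result, since Igfbp6, the denominator, did not overlap by itself, whereas Igfbp3 did.

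**Figure D4:**
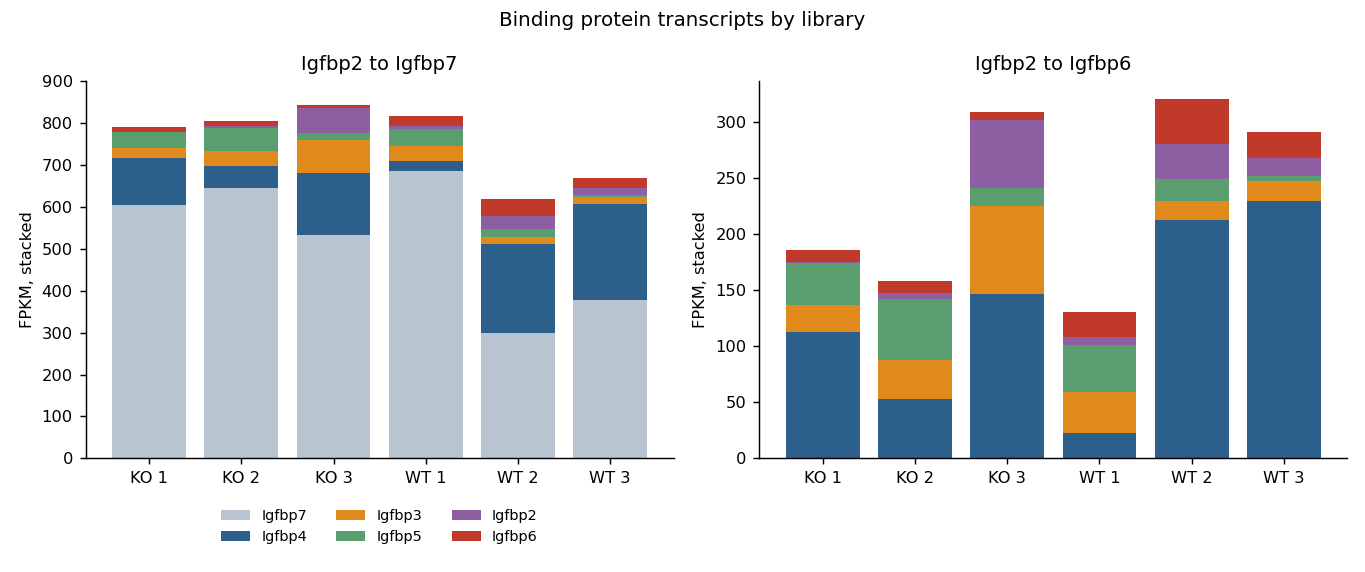
Stacked FPKM of the binding protein transcripts in each library, KO on the left and WT on the right of each panel, with Igfbp7 on the left panel only. Igfbp7 is the largest part in all 6 libraries, and WT replicate 1, with a sum of 130 FPKM on the right panel, is the lowest for Igfbp2 to Igfbp6.

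With the plus-strand locus of Igfbp5 set aside (SD of log2 CPM 2.80), most ligands and binding proteins varied more between libraries than most other genes did. The SD of log2 CPM over the 6 libraries was 2.54 for Igf2, above 98.5% of the loci tested, and 2.07 for Igfbp2, above 97.2%. Igf1, Igfbp5 and Igfbp4 had 1.39, 1.29 and 1.25, above 92.7%, 91.4% and 90.8% of loci. The median over all loci was 0.38, and the receptors lay below it, at 0.27 for Igf1r and 0.25 for Igf2r. Highest over lowest CPM was 108 for Igf2 and 57.4 for Igfbp2, against 1.67 for Igf1r and 1.64 for Igf2r. On the log2 scale Igf1 spanned 0.24 within KO and 4.05 within WT, and Igf2 3.36 within KO and 6.39 within WT, whereas Igfbp2 spanned 5.80 within KO and 2.18 within WT.

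**Figure D5:**
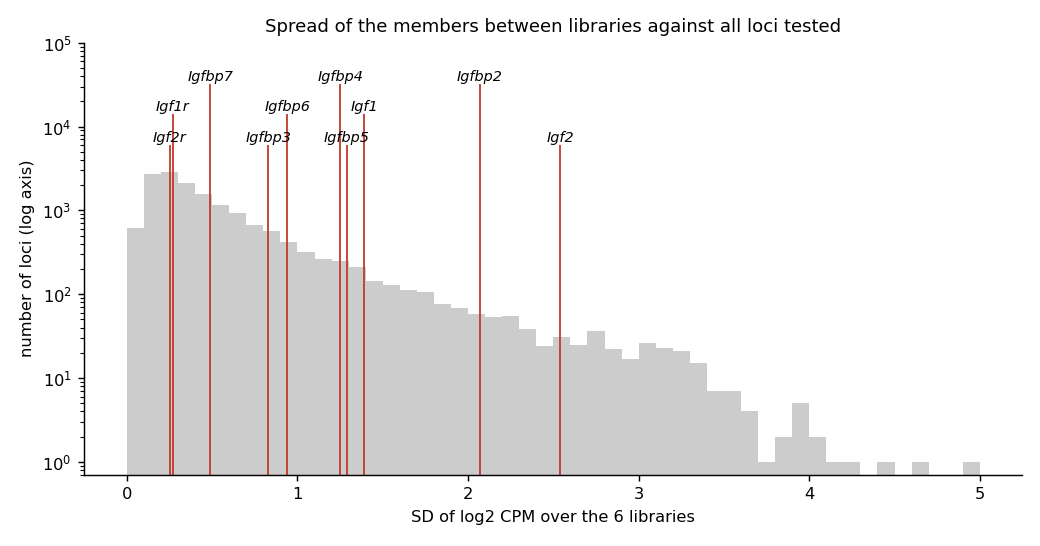
Histogram of the SD of log2 CPM over the 6 libraries for all 15673 loci tested (grey, counts on a log axis), with the 10 genes as red lines; the height of a line has no meaning. Igf2 (2.54) and Igfbp2 (2.07) lie in the upper tail, and Igf1r (0.27) and Igf2r (0.25) lie below the median of 0.38.

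The genes whose log2 CPM followed a member most closely over the 6 libraries were taken from 11424 genes, the 2 with the highest Pearson r for each member. With 6 points that share libraries and culture makeup, r is a description, and many genes reach high values. For Igf1 they were S1pr1, a sphingosine-1-phosphate receptor (r = 0.994), and Dab2, an endocytic adaptor (r = 0.993), with 233 genes at 0.95 or more. Dab2 had 173, 131 and 149 CPM in KO and 100.4, 245 and 893 CPM in WT, highest like the macrophage markers in WT replicate 3. For Igf2 they were Zfp251 (0.994) and Arhgap20 (0.991), with 81 such genes, and for Igf2r Thra, a thyroid hormone receptor (0.989), was among them, with 35. For Igf1r they were Nox4 and Ddah1 (both 0.993). For Igfbp6 the closest were Gm12482 (0.996) and Myo9a, a myosin (0.987), with 24 such genes, and Myo9a had 49.0, 47.5 and 39.0 CPM in KO and 59.1, 81.1 and 63.2 CPM in WT. For the remaining binding proteins they were Josd2 and Tmeff2 (Igfbp2), Rab36 and Top3b (Igfbp3), Fzd5 and Lama5 (Igfbp4), Il17rc and Cactin (Igfbp5), and, for Igfbp7, Zfp106, with r between 0.986 and 0.997. A high r takes no account of the size of a change, and some of these genes changed little. Josd2 ran from 24.7 to 28.2 CPM, where Igfbp2 ran from 1.36 to 78.2 CPM. Zfp251 ran from 18.9 to 27.8 CPM, where Igf2 ran from 16.8 to 1815 CPM.

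The other genes of the pathway were read from lists, and edgeR called 0 genes of every list at an adjusted p under 0.05. DESeq2 called Stc1 and 0 others on these pathway lists. Of 11 further IGF axis genes 4 were tested, with 3 positive and 1 negative log2 fold change and a median of 0.25, and 0 had an unadjusted p under 0.05. Insr, the insulin receptor, had 73.8, 85.9 and 66.4 CPM in KO and 74.3, 50.2 and 56.7 CPM in WT, a log2 fold change of 0.32. Igf2bp3, an RNA-binding protein that binds Igf2 messenger RNA, had 55.9, 58.4 and 65.2 CPM in KO and 65.4, 70.1 and 69.5 CPM in WT (log2 fold change -0.19, edgeR adjusted p 0.763). Every KO library lay below every WT library, as for 5.44% of all loci tested, although KO replicate 3 and WT replicate 1 were nearly equal. Ins1 and Ins2 had 0 fragments in every library, and Igfals, the acid-labile subunit of the serum complex, had 2 fragments, both in WT replicate 3.

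All 4 stanniocalcins and pappalysins were tested. Pappa, which encodes PAPP-A, had 52.0, 123 and 286 CPM in KO and 159, 303 and 52.7 CPM in WT, a log2 fold change of -0.16 with overlapping groups. Pappa2, at a locus shared with 1600012P17Rik, had 10.3, 8.39 and 9.76 CPM in KO and 8.14, 1.64 and 2.86 CPM in WT. Every KO library lay above every WT library, as for 5.18% of all loci tested, although KO replicate 2 and WT replicate 1 were nearly equal. The log2 fold change was 1.17 with an edgeR adjusted p of 0.763. Stc2, the paralog of the knocked-out gene, had 45.8, 26.3 and 14.2 CPM in KO and 22.7, 41.1 and 7.47 CPM in WT, a log2 fold change of 0.27.

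Of 14 other proteases reported to cut binding proteins 10 were tested, with 4 positive and 6 negative log2 fold changes and a median of -0.32. With each library left out in turn, the median ran from -0.43 without KO replicate 2 to -0.12 without WT replicate 2. It was -0.18 without KO replicate 1. Mmp9, a gelatinase, had 122, 65.9 and 49.4 CPM in KO and 26.3, 11.1 and 37.6 CPM in WT, above WT in every KO library (log2 fold change 1.66, edgeR unadjusted p 0.0222, adjusted p 0.763). Htra3, a secreted serine protease, had 1.88, 1.64 and 1.22 CPM in KO and 2.12, 7.66 and 17.9 CPM in WT, below WT in every KO library (log2 fold change -2.55, edgeR unadjusted p 0.0166, adjusted p 0.763). Of 15 names of matrix proteins related to the binding proteins 8 were tested, with 3 positive and 5 negative and a median of -0.12. That median was -0.45 without KO replicate 3, -0.35 without WT replicate 1, -0.04 without WT replicate 2, -0.03 without KO replicate 1 and 0.08 without WT replicate 3. Wisp2, a CCN family protein, had 10.6, 63.1 and 60.8 CPM in KO and 98.9, 172 and 156 CPM in WT, again without overlap (log2 fold change -1.66, edgeR unadjusted p 0.0462, adjusted p 0.763). Over all loci tested, groups did not overlap for 5.18% with KO higher and for 5.44% with KO lower. At an unadjusted p under 0.05 by edgeR, 1.6% of all loci were higher in KO and 2.27% lower.

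Downstream of the receptor, 29 of 30 signalling genes were tested, with 14 positive and 15 negative log2 fold changes and a median of -0.01, and 0 had an unadjusted p under 0.05. The smallest p belonged to the locus of the adaptor Shc1, shared with Pygo2, at 290.2, 318 and 349 CPM in KO and 295, 222 and 177 CPM in WT. Mtor, the kinase of the growth pathway, had 97.8, 103 and 108 CPM in KO and 99.2, 71.6 and 82.5 CPM in WT. Of 18 imprinted genes beside or linked to Igf2 and Igf2r 15 were tested, with 7 positive and 8 negative and a median of -0.24, and 0 had an unadjusted p under 0.05 by edgeR. The sign of that median turned on single libraries: without WT replicate 2 there were 12 positive and 3 negative with a median of 0.26, and without KO replicate 1 the median was 0.05. It was -0.02 without KO replicate 2, -0.15 without KO replicate 3 and -0.36 without WT replicate 3. It was 0.08 in DESeq2, and 0.55 with 11 positive and 4 negative without WT replicates 2 and 3 and KO replicate 1.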

How the data were processed

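RNA-seq libraries of embryonic fibroblasts, 3 KO and 3 WT, were analysed. Per the labels' protocols a stranded kit for polyadenylated RNA was used. The submitters' processing notes name the mm10 build, Cuffdiff 2.0.1, TopHat2 2.0.6 and CASAVA 1.8.2. Per the file headers, the authors deposited for each locus an expected count of fragments, an FPKM and a status. The authors' deposited comparison gives p-values and q-values, and its log2 fold changes hold a placeholder for infinite ones. About 24% of the counts are not whole, so they were rounded.

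Of 39495 loci, 2667 had no gene name (0.507% to 0.555% of fragments) and 16 were marked HIDATA; these were left out of library sizes and tests, and 1132 marked FAIL were kept. In R 4.3.3, edgeR 4.0.16 (TMM scaling, filterByExpr, robust quasi-likelihood fit, Benjamini-Hochberg adjusted p under 0.05) was run on all 15673 loci that passed the filter; the biological coefficient of variation was 0.467. Alternatives were limma 3.58.1 (voom, or FPKM on a log2 scale with 1 or 0.1 added), DESeq2 1.42.0, other scalings and filters, a macrophage covariate and left-out libraries. The script was tested on simulated data. Members and gene lists were chosen with earlier results of these data known. Named genes were all members, Stc1, up to 3 genes with the smallest p in each list, and the 2 nearest genes of each member, of which some are not reported here; others (Pappa, Dcn, Igf2as, Airn and the genes at 0) were added after their values were seen. Replicate numbers only name libraries.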

Additional observations from a re-analysis of the deposited data

How the results depend on the processing

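edgeR called 0 loci and 0 members with all 6 libraries, and 0 of each in every fit that left out 1 library. DESeq2 called 61 loci, limma on log2(FPKM + 1) 2 and on log2(FPKM + 0.1) 3; DESeq2 called 1 member, Igfbp6, and limma called 0. The numbers of members at an unadjusted p under 0.05 were 3 in DESeq2 (beside 1223 of all 23651 loci), 5 in edgeR without WT replicate 1 (Igf1, Igfbp3, Igfbp4, Igfbp6 and Igfbp7, beside 2939 of all 15960 loci), and 2 in edgeR without WT replicates 2 and 3 and KO replicate 1 (beside 561 of all 16103 loci). No paired analysis was possible because the labels give the libraries no replicate numbers.

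Igf2r, Igfbp3 and Igfbp6 kept the sign of their log2 fold change in all 16 alternatives. With the macrophage marker mean as a covariate the sign turned for Igf1 (0.05), Igf1r (-0.13) and Igfbp4 (0.72). Without WT replicates 2 and 3 and KO replicate 1 it turned for Igf1 (0.94), Igf2 (2.25), Igf1r (-0.20), Igfbp4 (2.04), Igfbp5 (-0.33) and Igfbp7 (-0.30), and it was 2.23 for Igfbp2; there the lone WT library was assumed to vary like the KO libraries. Igfbp2 was -0.70 in limma-voom, -0.79 on log2(FPKM + 1) and -1.05 on log2(FPKM + 0.1). With 1 library left out the log2 fold change ran from -2.29 to -0.0037 for Igf1, from -4.74 to -0.02 for Igf2, from -0.17 to 0.18 for Igf1r, from -2.51 to 0.90 for Igfbp2, from -1.13 to -0.21 for Igfbp4, from 0.17 to 1.54 for Igfbp5, from 0.13 to 0.82 for Igfbp7 and from -2.45 to 0.20 for the plus-strand locus of Igfbp5. Apart from the construction of these fits the cause was not tested. Igf2 has no value without loci marked FAIL. With 29 fragments of Igfbp2 in KO replicate 1, depth limits that value.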

Other observations

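Markers of other cell types gave further values. Of the fibroblast markers 5 had a positive and 8 a negative log2 fold change, with a median of -0.60. By edgeR 3 of the 13 tested were lower in KO at an unadjusted p under 0.05, as were 2.27% of all loci. The median of these markers was -0.90 without KO replicate 2 and -0.34 without WT replicate 2. The 6 endothelial markers tested were all negative with a median of -1.09, which was -2.02 without KO replicate 1 and -0.82 without KO replicate 3. With the macrophage marker mean as a covariate 2 were positive and 4 negative (median -0.21), and without WT replicates 2 and 3 and KO replicate 1 there were 4 positive and 2 negative (median 0.28). Their summed CPM was 42.4, 14.6 and 10.8 in KO and 11.9, 25.4 and 74.0 in WT. The 2 skeletal muscle markers tested were negative, Des at 18.8, 11.8 and 26.4 CPM in KO and 23.7, 98.3 and 82.4 CPM in WT. The other, Tnnt1, was low, at 0.354 to 1.24 CPM (log2 fold change -0.45, edgeR unadjusted p 0.494). The muscle regulators Myod1, Myog, Myf5 and Myf6 did not exceed 0.0468 CPM in any library. Epithelial markers were low in every library, with summed CPM from 2.02 to 4.93 in KO and from 1.63 to 11.4 in WT. Their part in the values of the IGF genes was not tested.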
